A study of Homo sapiens with 6 samples.

Results

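The mitochondrial carrier family was described in RKO cells with and without overexpressed connexin 43. Members were taken by symbol, as every gene named SLC25A followed by a number, together with MTCH1, MTCH2, UCP1, UCP2 and UCP3. This gave 53 of the 63563 genes in the deposited gene table. RKO is a human colorectal cancer line, and poly(A) RNA of 6 libraries was sequenced. The OVER43 group (3 libraries, genotype Cx43 overexpression) carried Cx43 cDNA in the vector pCDNA3.1 after stable transfection. The EV group (3 libraries, genotype given as WT) was the empty-vector control of the same line, and both were grown in DMEM with fetal bovine serum, penicillin and streptomycin. The labels do not say whether the stable lines were single clones or pools, or whether each library was a culture of its own, so p-values measure the spread between these libraries, which may be technical.

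Mitochondrial carriers are small proteins of the inner mitochondrial membrane, built from repeated helix pairs, that exchange nucleotides, phosphate, amino acids, organic acids, cofactors and metal ions between cytosol and matrix. The ADP/ATP translocases and the phosphate carrier feed ATP synthase with its substrates. Uncoupling proteins belong to the same family, and a few family members sit in the outer membrane or in peroxisomes. Carriers are encoded in the nucleus, made in the cytosol and inserted by the TOM and TIM22 import complexes with help from small TIM chaperones.

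Values are FPKM, fragments scaled for transcript length and library depth, which Cuffdiff had scaled between libraries. Depth, read from the steps between low FPKM values, was 49.2, 47.8 and 46.8 M fragments in OVER43 libraries and 52.1, 42.5 and 46.9 M in EV libraries. GJA1, the gene of connexin 43, had 23.2, 26.0 and 24.9 FPKM in OVER43 libraries, against 0.30, 0.351 and 0.394 FPKM in EV libraries. Its log2 fold change was 4.25 (limma, Benjamini-Hochberg adjusted p = 3.22e-08), and an exact two-sided permutation test gave p = 0.1, the smallest that 3 against 3 libraries allow. Of the 11 colon epithelial markers listed, CDX2, EPCAM, KRT8 and KRT18 reached 1 FPKM and KRT20 was listed at 0, and their summed level was 199 to 204 FPKM in OVER43 and 156 to 164 FPKM in EV. Within that sum KRT18 and EPCAM were higher (148 and 20.5 FPKM on average in OVER43, 79.4 and 12.5 FPKM in EV) and KRT8 was lower (24.6 FPKM in OVER43, 58.7 FPKM in EV; limma adjusted p = 3.71e-06), while CDX2 did not pass. Among 6 leukocyte markers CD68 alone was above 1 FPKM, and PTPRC and CD3E were listed at 0, with sums of 368 to 387 FPKM in OVER43 and 405 to 421 FPKM in EV. Fibroblast markers summed to 1.99 to 3.45 FPKM in OVER43 and 2.21 to 2.86 FPKM in EV, and endothelial markers to 0.259 to 0.432 FPKM in OVER43 and 0.112 to 0.175 FPKM in EV; their part in the results was not tested.

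Of the 53 members, 40 reached 1 FPKM in at least 3 of the 6 libraries and were tested. In OVER43, 15 members were higher and 4 lower at a limma adjusted p under 0.05, Benjamini-Hochberg over the 12205 genes tested, and 21 did not pass. Called members were thus 19 of 40, a share near the 45.9% of all tested genes that were called, and no test of that difference was made. The higher members were 37.5% of those tested, beside 28.4% of all tested genes, and the lower ones 10.0%, beside 17.5%. With the libraries set to equal FPKM sums, the split was 12 higher and 7 lower members, and over all genes 15.3% higher and 29.2% lower. The 3 OVER43 libraries lay wholly above the 3 EV libraries for 17 members (33.9% of all tested genes did so) and wholly below them for 6 (22.4% of all tested genes), and the groups overlapped for the other 17. In bulk RNA, a change in the share of cells that use a gene and a change in RNA per cell cannot be told apart.

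The median log2 fold change on the log2(FPKM + 1) scale was 0.098 over the 40 tested members and 0.053 over all tested genes. At equal FPKM sums these medians were -0.034 for members and -0.076 for all genes, so the sign of the family's median rested on the scaling. The 13 untested members stood at 0.518 FPKM or less in every library. Among these, SLC25A1, SLC25A6, SLC25A52 and UCP1 were listed at 0 in all 6 libraries. SLC25A1, the citrate carrier, and SLC25A6, an ADP/ATP translocase, are widely expressed genes, and a 0 in these tables can be a missing estimate, so nothing is read from it.

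**Figure D1:**
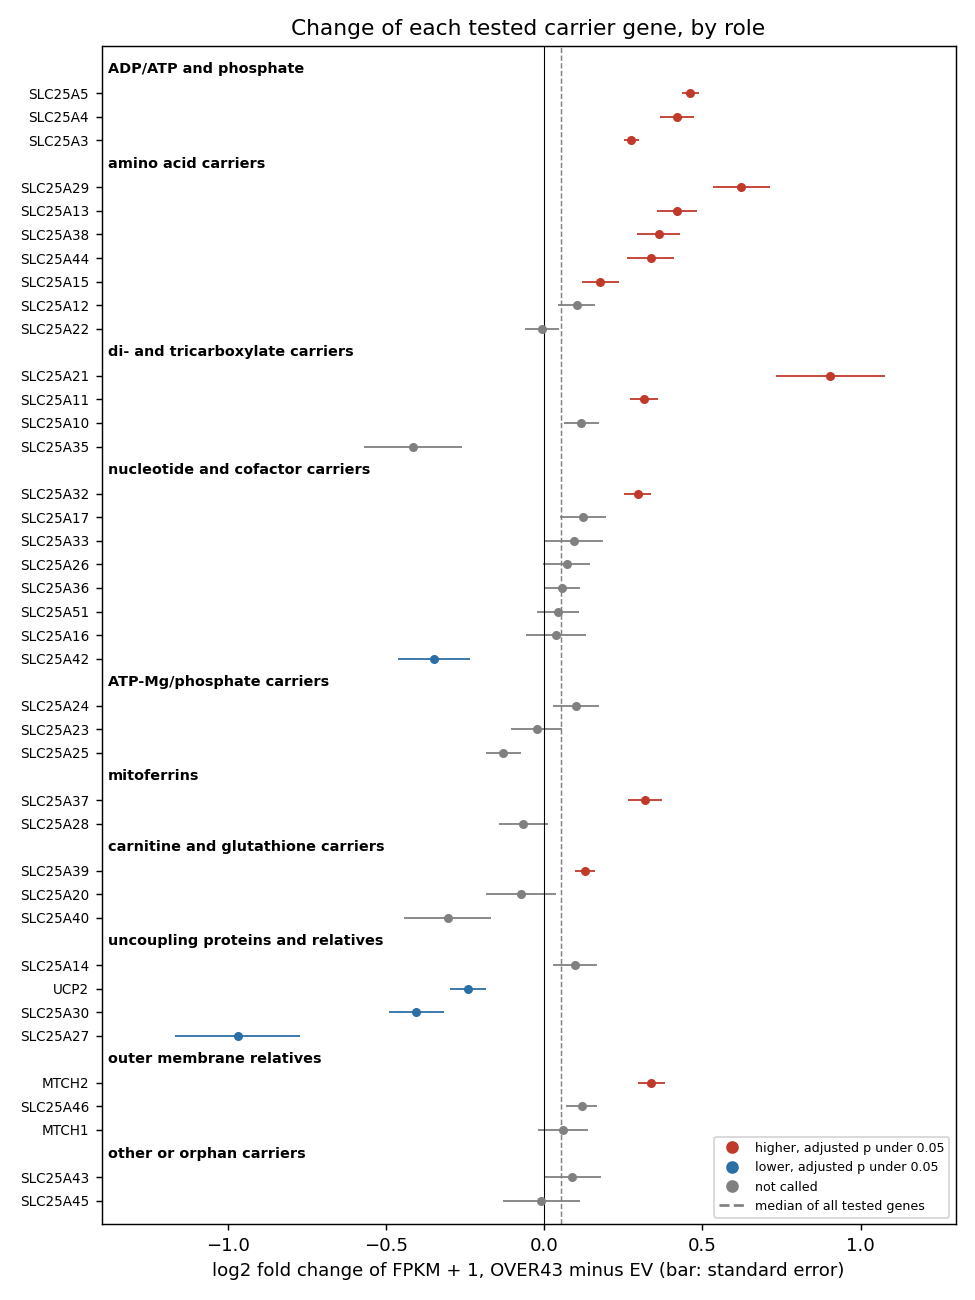
Log2 fold change of FPKM + 1 (OVER43 minus EV, horizontal axis) of 39 of the 40 tested carrier genes, grouped by role, with bars for the standard error. The ADP/ATP translocases SLC25A5 and SLC25A4 and the phosphate carrier SLC25A3 lie right of 0, and 3 of the 4 uncoupling protein relatives lie left of it.

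The adenine nucleotide translocases and the phosphate carrier, which supply ATP synthase, were all higher in OVER43 among those tested (3 of 3). Of all tested genes 28.4% were higher, and 47.8% of those at 20 FPKM or more, where these 3 lie. SLC25A5, the ADP/ATP translocase of dividing cells, had 499, 495 and 513 FPKM in OVER43 libraries, against 371, 366 and 357 FPKM in EV libraries. Every OVER43 library was above every EV library, and the spread within each group was under 2% of its mean (CV 1.84% in OVER43, 1.96% in EV). The log2 fold change was 0.46 ± 0.0273 (SE; limma adjusted p = 1.22e-05), the smallest adjusted p among the tested members. Of the 20 tested genes nearest to SLC25A5, 11 were higher and 0 lower (median log2 fold change 0.14), and the part of that neighbourhood was not tested. SLC25A5 has many processed pseudogenes, and how reads shared with them were assigned is not known.

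SLC25A3, the phosphate carrier, which also brings copper into the matrix, had 384, 385 and 393 FPKM in OVER43 libraries and 319, 321 and 319 FPKM in EV libraries. The groups were apart, with a log2 fold change of 0.27 ± 0.0241 (SE; limma adjusted p = 7.45e-05). SLC25A4, the ADP/ATP translocase of heart and muscle, had 30.8, 29.5 and 29.8 FPKM in OVER43 libraries and 22.4, 23.4 and 20.9 FPKM in EV libraries. It too was higher in all OVER43 libraries, by 0.42 ± 0.0539 on the log2 scale (limma adjusted p = 0.000487). SLC25A31, the testis translocase, stood at 0.0139 FPKM or less in every library and was not tested.

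SLC25A5 and SLC25A3 dominated the family's RNA. Together they made up 47.7 ± 0.0652% of the members' summed FPKM in OVER43 and 44.0 ± 0.287% in EV (SD, n = 3 each). The sum over all members was 1866 ± 28.8 FPKM in OVER43 and 1556 ± 9.38 FPKM in EV. Leaving out these 2 genes, the sum was 976 ± 15.1 FPKM in OVER43 and 871 ± 5.24 FPKM in EV. The FPKM sum over all genes was also larger in OVER43, at 554456 to 566947, than in EV, at 500546 to 509175.

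**Figure D2:**
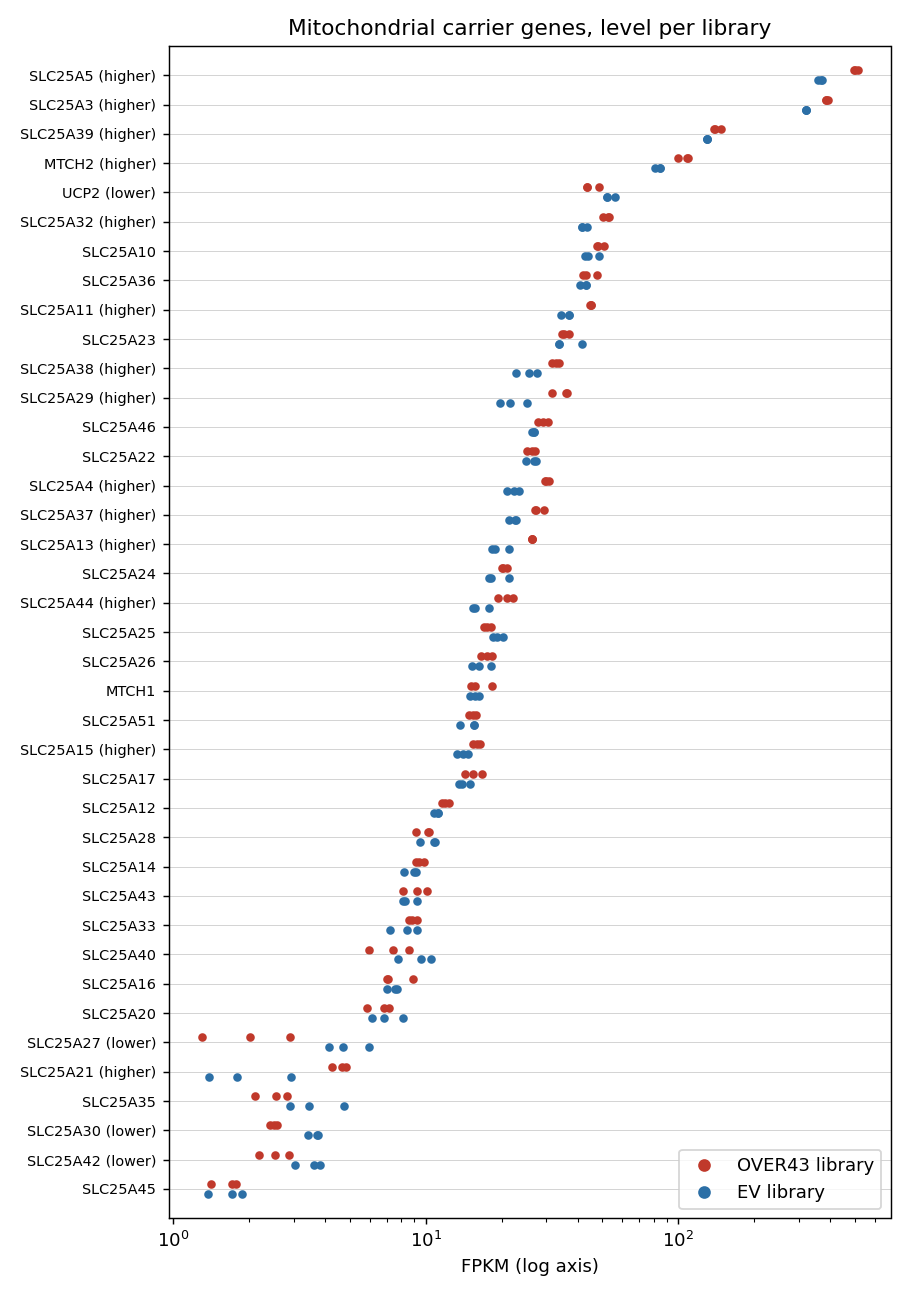
FPKM (log axis) of 39 of the 40 tested carrier genes in each library, ordered by mean level, with OVER43 libraries in red above EV libraries in blue; the call is written beside the gene. SLC25A5 and SLC25A3 stand at 319 FPKM or more in every library, and the widest scatter within groups is among genes under 5 FPKM.

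Because promoters of members that moved are of interest beside these values, the RefSeq promoters of the 3 energy carriers are shown together with those of the members with the largest changes, SLC25A21 and SLC25A29 (higher) and SLC25A27 (lower). These genes were chosen after their values were seen. Each window runs from 250 bases before to 50 bases after the annotated start, 5′ to 3′ on the gene's strand, in GRCh38.p14, and capitals mark matches to the motifs given after the sequences. The windows are chrX:119468194-119468493 (plus strand) for SLC25A5, chr4:185143016-185143315 (plus) for SLC25A4, chr12:98593436-98593735 (plus) for SLC25A3, chr14:37172557-37172856 (minus) for SLC25A21, chr14:100306395-100306694 (minus) for SLC25A29 and chr6:46652725-46653024 (plus) for SLC25A27.
SLC25A5: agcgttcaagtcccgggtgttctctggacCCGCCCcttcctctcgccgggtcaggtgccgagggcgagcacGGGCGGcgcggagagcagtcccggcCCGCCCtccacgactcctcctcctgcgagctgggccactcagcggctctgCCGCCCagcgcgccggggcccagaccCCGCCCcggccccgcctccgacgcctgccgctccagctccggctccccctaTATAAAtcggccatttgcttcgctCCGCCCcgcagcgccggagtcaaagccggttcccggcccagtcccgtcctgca
SLC25A4: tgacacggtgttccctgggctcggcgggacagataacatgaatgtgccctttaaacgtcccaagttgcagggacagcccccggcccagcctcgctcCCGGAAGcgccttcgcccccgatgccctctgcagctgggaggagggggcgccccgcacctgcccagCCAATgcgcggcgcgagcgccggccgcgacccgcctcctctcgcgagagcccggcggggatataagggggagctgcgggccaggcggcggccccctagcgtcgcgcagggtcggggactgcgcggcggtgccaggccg
SLC25A3: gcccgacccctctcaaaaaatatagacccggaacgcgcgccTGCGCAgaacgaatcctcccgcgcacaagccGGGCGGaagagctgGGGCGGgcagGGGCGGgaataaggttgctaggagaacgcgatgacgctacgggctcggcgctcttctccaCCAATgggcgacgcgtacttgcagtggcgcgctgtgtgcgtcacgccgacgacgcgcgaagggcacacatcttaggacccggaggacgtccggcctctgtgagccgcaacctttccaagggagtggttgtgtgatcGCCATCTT
SLC25A21: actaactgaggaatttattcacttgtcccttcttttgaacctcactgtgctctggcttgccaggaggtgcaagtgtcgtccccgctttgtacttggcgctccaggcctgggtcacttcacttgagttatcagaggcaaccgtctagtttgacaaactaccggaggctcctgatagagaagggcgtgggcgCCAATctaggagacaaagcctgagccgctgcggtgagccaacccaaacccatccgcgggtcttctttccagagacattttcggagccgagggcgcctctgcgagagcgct
SLC25A29: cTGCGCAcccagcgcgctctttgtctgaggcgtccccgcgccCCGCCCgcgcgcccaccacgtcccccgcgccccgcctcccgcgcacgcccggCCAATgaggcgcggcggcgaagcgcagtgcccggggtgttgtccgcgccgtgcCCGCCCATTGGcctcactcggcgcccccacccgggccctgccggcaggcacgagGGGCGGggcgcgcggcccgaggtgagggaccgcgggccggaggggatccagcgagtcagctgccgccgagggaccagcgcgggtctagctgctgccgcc
SLC25A27: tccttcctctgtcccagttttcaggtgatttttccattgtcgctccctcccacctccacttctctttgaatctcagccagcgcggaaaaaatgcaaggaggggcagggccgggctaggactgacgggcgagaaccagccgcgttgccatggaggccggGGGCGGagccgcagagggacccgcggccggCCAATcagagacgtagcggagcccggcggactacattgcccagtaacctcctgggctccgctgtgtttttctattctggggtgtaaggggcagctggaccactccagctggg

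The motifs searched on both strands were a partial NRF1 site TGCGCA, the GC box GGGCGG, an ETS site CCGGAAG, the CCAAT box CCAAT, the E-box CACGTG, the CRE TGACGTCA, a YY1 site GCCATNTT and TATAAA. Matches were allowed to overlap. In SLC25A29 a GC box and a CCAAT box stand directly next to each other, both on the strand opposite to the printed one, and share no base. The SLC25A5 window held 6 GC boxes and TATAAA 27 bases before the start. SLC25A3 held 3 GC boxes, 1 partial NRF1 site, 1 CCAAT box and a YY1 match 42 bases after the start. SLC25A4 held an ETS site and a CCAAT box, and SLC25A21 a single CCAAT box. SLC25A29 held 3 GC boxes, 2 CCAAT boxes and a partial NRF1 site, and SLC25A27 1 GC box and 1 CCAAT box.

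A promoter window was matched for 45 of the 53 members. A GC box was in 31 of these 45 (68.9%), beside 44.6% of all 27305 gene promoters of that length. A CCAAT box was in 21 (46.7%; all promoters 35.7%), an ETS site in 9 (20%; all 10.7%) and an E-box in 9 (20%; all 7.43%). The partial NRF1 site was in 5 (11.1%; all 8.42%), the CRE in 3 (6.67%; all 1.98%), TATAAA in 3 (6.67%; all 12%) and the YY1 match in 2 (4.44%; all 6.82%). Median GC content was 66.7% for member promoters and 58.3% for all promoters. Among members with a window, GC boxes were in 8 of 12 higher and 2 of 3 lower ones, and CCAAT boxes in 6 of 12 and 3 of 3. These are matches of letters only.

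Of 7 tested amino acid carriers, 5 were higher in OVER43 and 0 lower, beside 28.4% and 17.5% of all tested genes. At equal FPKM sums 3 were higher and 0 lower, beside 15.3% and 29.2%. SLC25A29, which carries lysine and arginine, had 36.1, 31.5 and 35.8 FPKM in OVER43 libraries and 19.7, 21.5 and 25.1 FPKM in EV libraries. The groups were apart, with a log2 fold change of 0.62 ± 0.0908 (SE; limma adjusted p = 0.000905). SLC25A29 lies on chromosome 14, where 15 of its 20 nearest tested genes were higher and 1 lower, with a median log2 fold change of 0.44; the part of that neighbourhood in the result was not tested.

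SLC25A13, the liver-type aspartate/glutamate carrier citrin of the malate-aspartate shuttle, had 26.4, 26.3 and 26.3 FPKM in OVER43 libraries and 21.4, 18.7 and 18.3 FPKM in EV libraries. The OVER43 libraries differed by 0.275% of their mean (CV) and were all above the EV libraries. The log2 fold change was 0.42 ± 0.0641 (SE; limma adjusted p = 0.00114). SLC25A12, its close relative in brain and muscle, had 12.4, 11.6 and 11.9 FPKM in OVER43 and 10.8, 11.2 and 11.2 FPKM in EV, a log2 fold change of 0.10 that did not pass (limma adjusted p = 0.185).

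SLC25A38, the glycine carrier needed for heme synthesis, had 32.8, 31.6 and 33.8 FPKM in OVER43 libraries and 25.6, 27.4 and 22.8 FPKM in EV libraries. It was higher by 0.36 ± 0.0686 on the log2 scale (SE; limma adjusted p = 0.00337), with no overlap between groups. SLC25A44, a carrier of branched-chain amino acids, had 19.4, 21.0 and 22.2 FPKM in OVER43 libraries and 17.8, 15.4 and 15.7 FPKM in EV libraries. Its log2 fold change was 0.34 ± 0.0747 (SE; limma adjusted p = 0.00703), and at equal FPKM sums and without any filter on low values it missed the threshold (adjusted p of 0.0505 and 0.0626). SLC25A15, the ornithine carrier of the urea cycle, passed narrowly (a log2 difference of 0.18, limma adjusted p = 0.0391), but its call was lost on leaving out any 1 library except EV library 1 (adjusted p of 0.0501 to 0.118), under quantile scaling (0.135), at equal FPKM sums (0.611) and without a filter (0.0907). SLC25A22, a glutamate carrier, averaged 26.1 ± 0.946 FPKM in OVER43 and 26.2 ± 1.22 FPKM in EV (SD, n = 3 each).

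Among carriers of di- and tricarboxylates, 2 of 4 tested members were higher and 0 lower, beside 28.4% and 17.5% of all tested genes. SLC25A21, which carries oxoadipate in lysine and tryptophan breakdown, had 4.82, 4.24 and 4.64 FPKM in OVER43 libraries and 1.79, 2.92 and 1.39 FPKM in EV libraries. The EV libraries scattered more (CV 39.1%) than the OVER43 libraries (6.49%), and the groups did not overlap. The log2 fold change of 0.90 ± 0.173 (SE; limma adjusted p = 0.00348) was the largest rise in the family. Without any filter on low values its adjusted p was 0.0535. Like SLC25A29 it lies on chromosome 14, where 16 of its 20 nearest tested genes were higher and 0 lower (median log2 fold change 0.38); the part of that neighbourhood was not tested.

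SLC25A11, the oxoglutarate/malate exchanger of the malate-aspartate shuttle, averaged 45.0 ± 0.206 FPKM in OVER43 and 36.0 ± 1.44 FPKM in EV (SD, n = 3 each; log2 fold change 0.31, limma adjusted p = 0.000693). SLC25A10, the dicarboxylate carrier, averaged 48.8 ± 1.81 FPKM in OVER43 and 45.0 ± 2.96 FPKM in EV and did not pass (limma adjusted p = 0.119). SLC25A35, a relative of the oxaloacetate carrier of yeast, had 2.81, 2.11 and 2.54 FPKM in OVER43 libraries and 4.75, 3.44 and 2.89 FPKM in EV libraries. Its groups were apart, yet the log2 fold change of -0.42 missed the threshold (limma adjusted p = 0.0582) and passed at equal FPKM sums (adjusted p = 0.0245).

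Of 9 tested nucleotide and cofactor carriers, 2 were higher, 1 lower and 6 did not pass. Among all tested genes 28.4% were higher and 17.5% lower. SLC25A32, the carrier linked to folate and FAD, averaged 51.9 ± 1.41 FPKM in OVER43 and 42.2 ± 1.22 FPKM in EV (SD, n = 3 each; log2 fold change 0.29, limma adjusted p = 0.000807).

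SLC25A42, a coenzyme A carrier, went the other way, with 2.87, 2.19 and 2.53 FPKM in OVER43 libraries and 3.82, 3.61 and 3.04 FPKM in EV libraries. The groups did not overlap, with a log2 fold change of -0.35 ± 0.115 (SE; limma adjusted p = 0.0368). That call was lost under quantile scaling (adjusted p = 0.107), without a filter (adjusted p = 0.131) and on leaving out OVER43 library 1, OVER43 library 2, EV library 0 or EV library 1 (adjusted p of 0.0786 to 0.113). The members that did not pass were SLC25A16, SLC25A17, SLC25A26, SLC25A33, SLC25A36 and SLC25A51, which span coenzyme A, pyrimidine nucleotides, S-adenosylmethionine and NAD, with log2 fold changes of 0.038 to 0.12.

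Uncoupling proteins and their relatives were the one group with several members lower: of 4 tested, 3 were lower and 0 higher, beside 17.5% lower among all tested genes and 21.6% among those under 5 FPKM, where 2 of the 3 lie. The count was the same at equal FPKM sums, where 29.2% of all genes were lower, and under quantile scaling, where 2452 of all 12205 tested genes were lower. Their median log2 fold change was -0.32, beside 0.098 over the 40 tested members. SLC25A27, a brain-enriched uncoupling protein relative, had 2.01, 2.91 and 1.3 FPKM in OVER43 libraries and 5.97, 4.68 and 4.12 FPKM in EV libraries. All OVER43 libraries were below all EV libraries, and the scatter was wide (CV 39.0% in OVER43, 19.3% in EV). The log2 fold change of -0.97 ± 0.199 (SE; limma adjusted p = 0.00481) was the largest fall in the family.

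SLC25A30, an uncoupling protein relative described in kidney, had 2.57, 2.41 and 2.50 FPKM in OVER43 libraries and 3.72, 3.42 and 3.74 FPKM in EV libraries. The groups were well apart (log2 fold change -0.40 ± 0.0874 SE, limma adjusted p = 0.00616). UCP2, the broadly expressed uncoupling protein that exports small organic acids from the matrix, had 48.7, 43.5 and 43.4 FPKM in OVER43 libraries and 52.3, 56.3 and 52.1 FPKM in EV libraries. It was lower by a log2 fold change of -0.24 ± 0.0570 (SE; limma adjusted p = 0.00950), without overlap. SLC25A14, with 9.46 ± 0.375 FPKM in OVER43 and 8.79 ± 0.519 FPKM in EV, did not pass (limma adjusted p = 0.293). Without any filter on low values, when many unexpressed genes enter the fit, the calls of SLC25A27 and UCP2 were lost (adjusted p of 0.0703 and 0.0764). UCP3 stayed between 0.120 and 0.518 FPKM and was not tested.

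The mitoferrins carry iron for heme and iron-sulfur clusters. SLC25A37, the mitoferrin of red cell precursors, had 27.1, 27.2 and 29.3 FPKM in OVER43 libraries and 22.6, 21.3 and 22.7 FPKM in EV libraries. The groups were apart, with a log2 fold change of 0.32 ± 0.0529 (SE; limma adjusted p = 0.00178). SLC25A28, the mitoferrin of most other tissues, averaged 9.86 ± 0.628 FPKM in OVER43 and 10.4 ± 0.777 FPKM in EV and did not pass (limma adjusted p = 0.520).

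Of the 3 outer membrane relatives, 1 was higher and 0 lower, beside 28.4% and 17.5% of all tested genes. MTCH2, an insertase for tail-anchored proteins of the outer membrane, had 99.95, 109 and 108 FPKM in OVER43 libraries and 84.3, 80.9 and 84.6 FPKM in EV libraries. The groups were apart, with a log2 fold change of 0.34 ± 0.0425 (SE; limma adjusted p = 0.000434). MTCH1, its close relative, had 15.7, 15.1 and 18.3 FPKM in OVER43 libraries and 16.2, 15.6 and 14.97 FPKM in EV libraries, which overlapped (log2 fold change 0.059 ± 0.0785 SE, limma adjusted p = 0.567). SLC25A46, which acts in mitochondrial shape and fusion, averaged 29.1 ± 1.37 FPKM in OVER43 and 26.7 ± 0.257 FPKM in EV and did not pass (limma adjusted p = 0.0831).

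Of the 3 glutathione and carnitine carriers, SLC25A39, a glutathione importer, averaged 142 ± 4.44 FPKM in OVER43 and 129.6 ± 0.387 FPKM in EV (SD, n = 3 each; log2 fold change 0.13, limma adjusted p = 0.0128), but its sign turned under quantile scaling (-0.067) and at equal FPKM sums (-0.015). Its relative SLC25A40 averaged 7.31 ± 1.29 FPKM in OVER43 and 9.26 ± 1.41 FPKM in EV, and SLC25A20, the acylcarnitine carrier of fatty acid oxidation, 6.59 ± 0.675 FPKM in OVER43 and 7.01 ± 1.01 FPKM in EV; neither passed. SLC25A40 was lower at equal FPKM sums (adjusted p = 0.0331) and without EV library 0 (adjusted p = 0.0445). None of the 3 tested ATP-Mg/phosphate carriers (SLC25A23, SLC25A24 and SLC25A25) passed, with log2 fold changes of -0.13 to 0.10; SLC25A25 was lower under quantile scaling and at equal FPKM sums (adjusted p of 0.0213 and 0.00645). SLC25A25 lies on chromosome 9, where 14 of its 20 nearest tested genes were lower and 0 higher (median log2 fold change -0.29). SLC25A43 and SLC25A45, the other tested members, did not pass either.

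Close relatives within the family were then compared as ratios, for 6 pairs chosen after the values were seen. SLC25A5 over SLC25A4 was 16.7 ± 0.495 in OVER43 and 16.4 ± 0.737 in EV (SD, n = 3 each; exact two-sided permutation test, p = 0.6), so both translocases rose in nearly the same proportion; the log2 ratio differed by 0.028 ± 0.0451 (SE). For the other 5 pairs the groups did not overlap, each at the smallest exact permutation p of 0.1 (0.12 after adjustment over the 6 pairs), which this design cannot bring under 0.05. Of all tested genes 56.3% had groups apart, and no such share was taken over other gene pairs. SLC25A13, SLC25A37, MTCH2 and SLC25A39 were called higher and their partners were not called, so these ratios add no support to the calls. SLC25A13 over SLC25A12 was 2.20 ± 0.0704 in OVER43 and 1.76 ± 0.188 in EV. SLC25A37 over SLC25A28 was 2.83 ± 0.157 in OVER43 and 2.15 ± 0.219 in EV. MTCH2 over MTCH1 was 6.50 ± 0.683 in OVER43 and 5.34 ± 0.267 in EV. The 2 remaining pairs were SLC25A39 over SLC25A40, which was 19.7 ± 3.11 in OVER43 and 14.2 ± 2.28 in EV, and SLC25A24 over SLC25A25, which was 1.17 ± 0.0578 in OVER43 and 0.991 ± 0.117 in EV. Such ratios do not depend on how the libraries are scaled by a single factor.

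Change and level went together across the members. Of the 18 members at 20 FPKM or more, 12 were higher and 1, UCP2, lower, with a median log2 fold change of 0.30. Among all 4449 genes at that level, 47.8% were higher and 14.3% lower, with a median of 0.14. Of the 16 members between 5 and 20 FPKM, 2 were higher and 0 lower (all genes at that level, 22.1% and 17.9%). Of the 6 members under 5 FPKM, 1 was higher and 3 were lower (all genes, 9.87% and 21.6%), with a median log2 fold change of -0.38. Across the 40 members the Spearman correlation of mean level and log2 fold change was 0.52, and across all tested genes 0.28; the points share the same 6 libraries and are not independent. The median CV within groups was 13.9% for members under 5 FPKM and 3.60% for those at 20 FPKM or more, so changes of low members were measured less precisely.

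**Figure D3:**
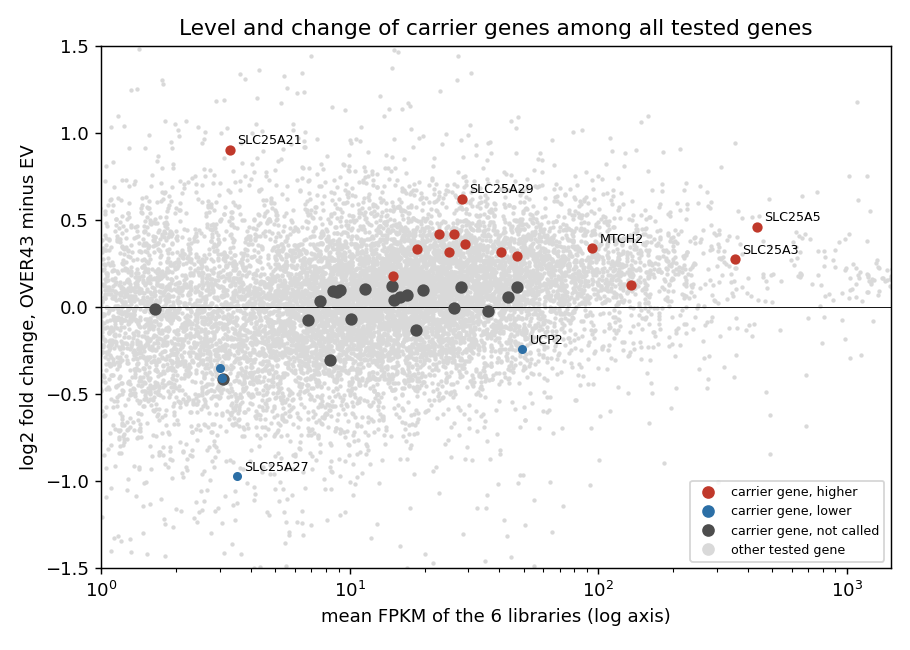
Mean FPKM of the 6 libraries (log axis) against log2 fold change (OVER43 minus EV) for carrier genes, coloured by call, over other tested genes in grey; genes beyond the axis limits are not drawn. Most of the red points lie at 20 FPKM or more, and SLC25A21 and SLC25A27 mark the ends of the range at under 5 FPKM.

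The isoform table held 396 transcripts of members, of which 110 reached 1 FPKM in at least 3 libraries. In OVER43, 12 transcripts were higher (10.9%, beside 9.85% of all 30015 tested transcripts) and 1 was lower (0.909%, beside 4.7%). All 11 genes with a higher transcript were among the 15 higher members. Names and types of transcripts below are those of GENCODE 29, and the division of a gene's reads among its transcripts is Cuffdiff's estimate.

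For SLC25A29, the coding transcript SLC25A29-201 had 20.1, 19.6 and 20.1 FPKM in OVER43 libraries and 6.90, 9.41 and 12.4 FPKM in EV libraries. It was 57.9% of the gene's transcript FPKM in OVER43 and 43.2% in EV, and its log2 fold change was 1.02 ± 0.185 (SE; limma adjusted p = 0.0178). The coding transcript SLC25A29-208 had 3.24 ± 0.343 FPKM in OVER43 and 3.49 ± 0.240 FPKM in EV (SD, n = 3 each) and did not pass (limma adjusted p = 0.705).

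Nearly all SLC25A5 RNA was assigned to SLC25A5-201, with 499 ± 9.43 FPKM in OVER43 and 363 ± 6.90 FPKM in EV (limma adjusted p = 0.000451). SLC25A3-217 held 93.1% of SLC25A3 in OVER43 and 92.6% in EV, with 360.4 ± 5.52 FPKM in OVER43 and 296 ± 3.01 FPKM in EV (limma adjusted p = 0.00118). Most SLC25A4 RNA was assigned to SLC25A4-202, annotated as a target of nonsense-mediated decay, with 24.5 ± 0.907 FPKM in OVER43 and 18.1 ± 1.52 FPKM in EV (limma adjusted p = 0.0147). The coding SLC25A4-201 had 5.25 ± 0.423 FPKM in OVER43 and 3.89 ± 0.260 FPKM in EV and did not pass (limma adjusted p = 0.0722); both transcripts kept their shares of the gene, 81.5% in each group for SLC25A4-202 and 17.5% for SLC25A4-201.

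SLC25A13-201 averaged 22.1 ± 0.701 FPKM in OVER43 and 15.2 ± 0.520 FPKM in EV (limma adjusted p = 0.00252). In MTCH2 the coding MTCH2-203 and the noncoding MTCH2-202 were higher, averaging 23.8 ± 0.570 and 22.2 ± 2.20 FPKM in OVER43, against 18.02 ± 0.456 and 16.7 ± 1.40 FPKM in EV (limma adjusted p = 0.00412 and 0.0407). The main transcripts of SLC25A11, SLC25A32, SLC25A38 and SLC25A44 were also higher.

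The 1 lower transcript was SLC25A27-203, with 0.557, 0.347 and 0.287 FPKM in OVER43 libraries and 1.70, 1.99 and 1.31 FPKM in EV libraries. The groups were apart (log2 fold change -0.93 ± 0.194 SE; adjusted p = 0.0275 in limma), and the call held on leaving out EV library 2 but on leaving out no other library. UCP2, lower as a gene, had 4 tested transcripts at 7.73 to 14.8 FPKM in OVER43 and 8.80 to 18.5 FPKM in EV, of which 0 passed. The entries that span a whole gene with its introns, a rough measure of unspliced RNA, were 0.242 ± 0.0294 FPKM in OVER43 and 0.400 ± 0.0502 FPKM in EV for SLC25A27. For SLC25A5 they were 0.968 ± 0.113 FPKM in OVER43 and 0.617 ± 0.0303 FPKM in EV, and for SLC25A29 2.21 ± 0.120 FPKM in OVER43 and 1.89 ± 0.0830 FPKM in EV. The libraries of the groups did not overlap for these 3 genes, but across the members such entries often did not follow the calls. Most stood under 1 FPKM, and the share of all genes apart on this measure is not given here. Groups overlapped for the called UCP2 (0.115 FPKM in OVER43, 0.113 FPKM in EV) and SLC25A13 (0.101 FPKM in OVER43, 0.117 FPKM in EV). Other called members with overlap included SLC25A11, SLC25A15, SLC25A30, SLC25A32, SLC25A39, SLC25A42 and SLC25A44. Groups were apart for the uncalled SLC25A16 (0.148 FPKM in OVER43, 0.241 FPKM in EV) and SLC25A51 (2.17 FPKM in OVER43, 1.95 FPKM in EV). They were also apart for the uncalled SLC25A17, SLC25A23, SLC25A25, SLC25A28, SLC25A40 and SLC25A43.

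**Figure D4:**
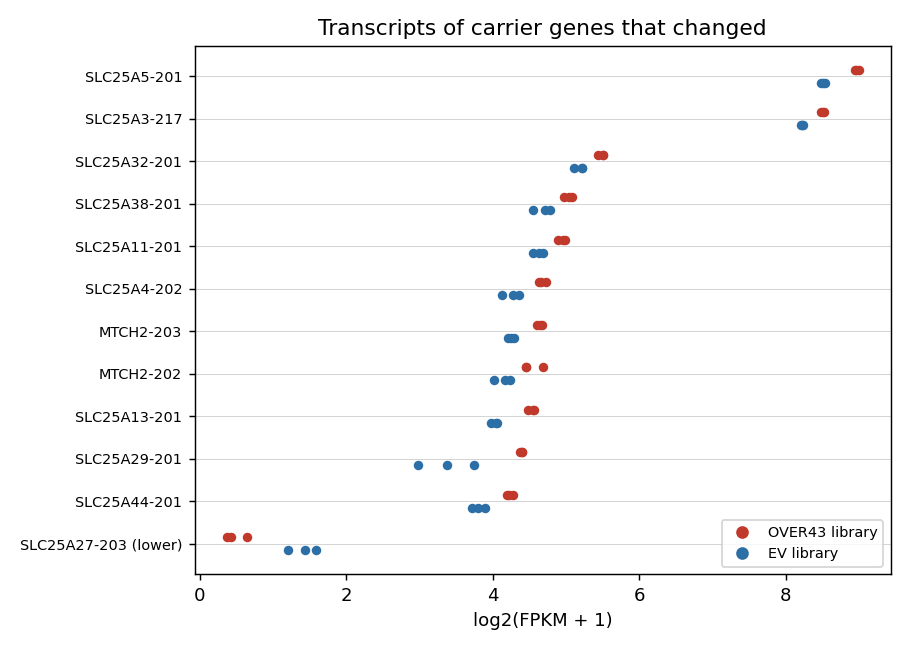
log2(FPKM + 1) in each library, OVER43 in red above EV in blue, for 12 of the 13 transcripts of carrier genes that passed the test. SLC25A5-201 and SLC25A3-217 stand highest, and SLC25A27-203 is the transcript that was lower.

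Genes of the mitochondrial import machinery were set beside the family: the TOM complex of the outer membrane, the small TIM chaperones and the TIM22 complex, through which carriers pass, and TIMM17A, TIMM44 and TIMM50 of the presequence route. Of 17 tested import genes, 12 were higher in OVER43, these 3 presequence genes among them, and 0 lower. Among all tested genes 28.4% were higher, and 47.8% among those at 20 FPKM or more. At equal FPKM sums the split was 7 and 2 (all genes 15.3% and 29.2%). Under quantile scaling it was 8 and 2, beside 2543 higher and 2452 lower of all 12205 tested genes. TIMM9, a chaperone that guides carriers across the intermembrane space, had 52.9 ± 4.98 FPKM in OVER43 and 30.5 ± 1.29 FPKM in EV (SD, n = 3 each; log2 fold change 0.77, limma adjusted p = 7.83e-05); the median log2 fold change of its 20 nearest tested genes was 0.32, and the part of that neighbourhood was not tested. TOMM40, the pore of the outer membrane, had 122.9 ± 5.77 FPKM in OVER43 libraries and 85.2 ± 2.25 FPKM in EV libraries (0.52 on the log2 scale, limma adjusted p = 5.24e-05). TIMM8B, another small chaperone, had 41.7 ± 2.36 FPKM in OVER43 and 31.9 ± 1.99 FPKM in EV (limma adjusted p = 0.00148). Of the import receptors, TOMM22 was higher, with 81.6 ± 2.94 FPKM in OVER43 libraries and 64.0 ± 1.58 FPKM in EV libraries (limma adjusted p = 0.000309). TOMM70 and TOMM20 did not pass, averaging 34.2 and 71.9 FPKM in OVER43 and 33.5 and 71.3 FPKM in EV.

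Of 17 other mitochondrial membrane transporters, 5 were higher and 4 lower, beside 28.4% and 17.5% of all tested genes. At equal FPKM sums 1 was higher and 5 were lower, beside 15.3% and 29.2% of all tested genes. With the values as deposited, the subunits of the pyruvate carrier went opposite ways. MPC1 averaged 23.7 ± 1.16 FPKM in OVER43 and 20.2 ± 0.827 FPKM in EV (limma adjusted p = 0.0127). MPC2 averaged 21.9 ± 1.96 FPKM in OVER43 and 30.1 ± 0.665 FPKM in EV (limma adjusted p = 0.00112). Their calls at equal FPKM sums are not given here. Of 18 enzymes that make or use the carriers' substrates, 7 were higher and 4 lower (2 and 5 at equal FPKM sums), beside the same shares. FECH, the last enzyme of heme synthesis, had 21.1 ± 1.25 FPKM in OVER43 and 27.8 ± 2.31 FPKM in EV (limma adjusted p = 0.00316).

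Among the 19 called members, 18 kept their sign under TMM, quantile and equal-sum scaling, SLC25A39 being the exception. At equal FPKM sums SLC25A5 was higher by 0.32, SLC25A4 by 0.28 and SLC25A3 by 0.13 on the log2 scale. In the authors' deposited table, 11 members, all of them among the 40 tested here, were significant at a q-value threshold of 0.05. Of the genes that table tested, 21.3% were significant. In OVER43, 9 of the 11 were higher and 2 lower, and the split by direction over all genes of that table is not given here. All 11 were also among the 19 called here.

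**Figure D5:**
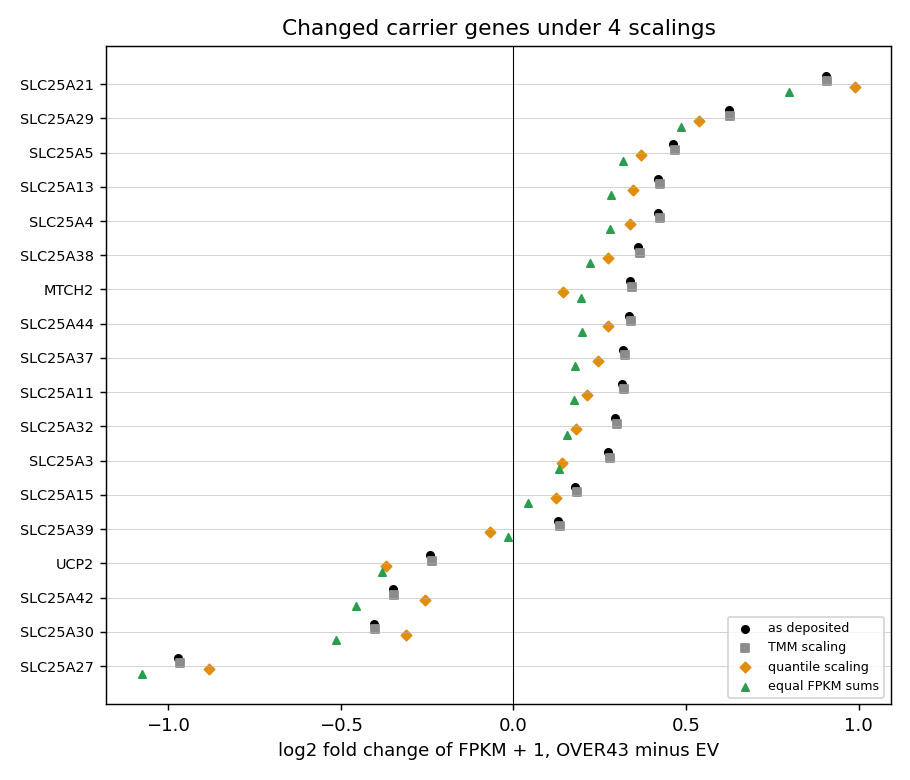
Log2 fold change of FPKM + 1 (OVER43 minus EV) of 18 of the 19 called carrier genes, with the values as deposited and after TMM, quantile and equal-sum scaling. SLC25A39 crosses 0, and the other members stay on their side.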

How the data were processed

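Per the labels' protocols, libraries were made from poly(A) RNA with an Illumina TruSeq kit. Per the submitters' processing notes, Cuffdiff was used; the sources used here give neither its version nor the aligner or strandedness. Both tables the authors deposited, for genes and isoforms, hold FPKM. The deposited log2 fold change is EV over OVER43. The deposited test statistic is a score. Deposited p-values and q-values come from Cuffdiff and entered only the comparison with the authors' table. The notes name hg38, yet among 52521 gene IDs also found in GENCODE 29 (GRCh38), 8455 loci overlap their position there and 271 have the same start or end, so no gene coordinates of the table are printed. Columns are numbered 0 to 2 where labels number replicates 1 to 3, and which column is which replicate is not known. The 19 genes without an estimate were left out. A gene overlapping an antisense or bundled neighbour, or sharing reads with a pseudogene, as SLC25A5 and SLC25A3 may, cannot be separated from it here. Depth was read from 129 to 151 low values per library, all within 0.1 fragment of whole numbers.

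A minimum of 1 FPKM in 3 or more of the 6 libraries was required, and genes were tested on log2(FPKM + 1), two-sided and Benjamini-Hochberg adjusted over all genes, with the trend and robust options of limma 3.58.1 in R 4.3.3. This scale understates changes of low genes. Transcripts were tested likewise. The procedure was tested on simulated data. Members and lists were chosen with earlier results of these data known. Described in full were up to 10 called members per direction with the largest change, plus SLC25A3, SLC25A4, SLC25A5, SLC25A6, MTCH1, MTCH2 and UCP2; of other lists, up to 3 per direction. Some genes that meet these rules are counted but are not reported here by name or drawn. A few further genes are named for contrast, chosen after their values were seen. Neighbours are the 20 nearest tested genes. The alternatives tried were scaling by quantiles, by equal FPKM sums or by TMM (own implementation), other filters, a pseudocount of 0.1, a replicate block, summed spliced transcripts, no trend or robust option, and leaving out each library; the transcript and GJA1 alternatives were chosen after seeing the data.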

Additional observations from a re-analysis of the deposited data

How the results depend on the processing

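Counts of higher members stayed within 12 to 16 and the sign of GJA1 held under every alternative run. Lower members numbered 7 of 40 at equal FPKM sums, beside 3567 of all 12205 genes. They numbered 1 of 49 without a filter (all genes, 1614 of 31562) and 1 of 34 at a minimum of 5 FPKM (all genes, 1592 of 9249). That minimum removes 3 of the 4 lower genes from the test. Leaving out a library gave 14 to 16 higher and 3 to 5 lower of 40 members. Of all 12205 genes, 2968 to 3169 were then higher and 1769 to 1918 lower. The median log2 fold change of members was 0.070 under quantile scaling, -0.034 at equal FPKM sums and 0.059 without a filter, and 0.087 to 0.11 on leaving out a library. Higher transcripts numbered 7 under quantile scaling, 7 at equal FPKM sums, 19 at a minimum of 5 FPKM and 7 to 12 on leaving out a library, 7 being the count without OVER43 library 1. Lower transcripts numbered 2 under quantile scaling, 2 at equal FPKM sums, 0 at a minimum of 5 FPKM and 0 to 1 on leaving out a library, 0 for each library but EV library 2. The shares over all transcripts under these settings are not given here, and the minimum of 5 FPKM changes which transcripts are tested, so the transcript counts cannot be set against all transcripts. The cause of these shifts was not tested.

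Signs turned for members with small changes. At equal FPKM sums the log2 fold change was -0.015 for SLC25A39, -0.011 for SLC25A17, -0.021 for SLC25A46, -0.023 for SLC25A10, -0.029 for SLC25A12, -0.036 for SLC25A24, -0.033 for SLC25A14, -0.034 for SLC25A33, -0.041 for SLC25A43, -0.064 for SLC25A26, -0.076 for MTCH1, -0.083 for SLC25A36, -0.092 for SLC25A51 and -0.089 for SLC25A16. Under quantile scaling it was -0.067 for SLC25A39, -0.0050 for SLC25A10, -0.00074 for MTCH1, -0.049 for SLC25A36, -0.013 for SLC25A51 and 0.078 for SLC25A45. On leaving out a library in turn, the uncalled members whose sign turned spanned -0.021 to 0.11 for MTCH1, -0.016 to 0.073 for SLC25A51, -0.059 to 0.089 for SLC25A16, -0.043 to 0.021 for SLC25A22, -0.086 to 0.054 for SLC25A45, -0.076 to 0.074 for SLC25A23 and -0.16 to 0.022 for SLC25A20.

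No pairing of libraries by column number was seen. Deviations of same-numbered libraries correlated at 0.017, -0.091 and 0.029, and those of other-numbered libraries at -0.099 to 0.097. These values cannot exclude a pairing. With the number as a replicate block, 14 members were higher and 5 lower, with SLC25A15 lost and SLC25A35 gained. Of all 12205 genes, 3306 were then higher and 2010 lower. Among member transcripts, 7 were higher and 0 lower. At depths of 42.5 to 52.1 M fragments, members under 5 FPKM had the largest median CV within groups (13.9%).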
